A study of Rattus norvegicus with 54 samples.

Results

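The sarcomeric myosin heavy chain genes of the rat were followed in hind limb skeletal muscle and, for comparison, in liver. The set was chosen by gene symbol alone and held 8 genes: *Myh3*, *Myh8*, *Myh7*, *Myh7b*, *Myh6*, *Myh2*, *Myh1* and *Myh4*. A gene was read from every probe set whose only annotated gene it was. There were 7 such probe sets, 1 for each gene except *Myh8*, among 15310 probe sets with a single gene symbol and 29214 in the table. No probe set here was named *Myh8*, the neonatal isoform, by symbol, gene ID or accession, so no value is given for it. The probe sets were 10734493 (*Myh3*), 10783715 (*Myh7*), 10841367 (*Myh7b*), 10783686 (*Myh6*), 10734530 (*Myh2*), 10734556 (*Myh1*) and 10734583 (*Myh4*).

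The muscle came from Wistar rats at foetal days 16, 18, 20 and 22 (F16, F18, F20 and F22) and at postnatal days 1 and 4 (P1 and P4), with 5 arrays at each of the 6 time points (30 arrays). The liver came from Wistar rats at F16, F20, F22, P1, P4 and P90, with 4 arrays each (24 arrays). All animals were untreated, the foetuses were delivered by Caesarean section, and the arrays were GeneChip Rat Gene 1.0 ST arrays given as log2 RMA signal, on which a step of 1 is a doubling. The labels call the arrays of a time point biological replicates and do not give the litters, so the spread between arrays can include shared litters. The 2 tissues were normalised apart, and no level was tested between them.

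Myosin heavy chains form the thick filament of the sarcomere, and their motor heads pull on actin at a speed that differs between isoforms. Each fibre of a rodent limb is classed by the isoform it holds: slow (*Myh7*), fast 2A (*Myh2*), fast 2X (*Myh1*) or fast 2B (*Myh4*). Developing fibres hold the embryonic (*Myh3*) and neonatal (*Myh8*) chains, which the adult chains replace after birth. *Myh6* encodes the alpha chain of the heart, and *Myh7b* encodes an ancient slow-tonic relative of *Myh7*. In the RefSeq annotation *Myh3*, *Myh2*, *Myh1*, *Myh4* and *Myh8* followed each other on chromosome 10, with *Myh6* beside *Myh7* on chromosome 15 and *Myh7b* alone on chromosome 3. The chains are close paralogues, so a probe set of one may take up transcript of another. The files give no probe sequence, and the share of any probe set's signal that came from a paralogue was not tested.

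The 3 adult fast genes and *Myh3* are shown with the 250 bases before their annotated starts, because the fast genes rose from P1 to P4 in muscle and the embryonic gene, their neighbour, fell. The sequences are those of RefSeq on GRCr8, all on the plus strand and written 5′ to 3′: *Myh2* at chr10:52355489-52355738, *Myh1* at chr10:52384662-52384911, *Myh4* at chr10:52421898-52422147 and *Myh3* at chr10:52268935-52269184. Capitals mark the longest run that all 3 fast genes share and every TATAAA on the written strand.
Myh2: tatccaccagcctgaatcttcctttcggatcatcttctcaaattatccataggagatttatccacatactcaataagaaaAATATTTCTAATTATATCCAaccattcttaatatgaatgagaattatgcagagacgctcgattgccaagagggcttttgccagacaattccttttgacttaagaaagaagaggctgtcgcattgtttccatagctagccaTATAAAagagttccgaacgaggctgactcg
Myh1: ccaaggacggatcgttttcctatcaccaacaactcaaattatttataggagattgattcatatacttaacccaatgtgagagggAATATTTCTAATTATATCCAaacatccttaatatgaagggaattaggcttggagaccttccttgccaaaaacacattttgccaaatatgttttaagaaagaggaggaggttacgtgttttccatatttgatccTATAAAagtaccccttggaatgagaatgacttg
Myh4: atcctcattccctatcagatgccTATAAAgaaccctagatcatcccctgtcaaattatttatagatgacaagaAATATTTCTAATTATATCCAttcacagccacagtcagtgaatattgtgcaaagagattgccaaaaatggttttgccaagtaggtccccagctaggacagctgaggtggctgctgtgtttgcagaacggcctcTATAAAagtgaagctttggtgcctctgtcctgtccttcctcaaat
Myh3: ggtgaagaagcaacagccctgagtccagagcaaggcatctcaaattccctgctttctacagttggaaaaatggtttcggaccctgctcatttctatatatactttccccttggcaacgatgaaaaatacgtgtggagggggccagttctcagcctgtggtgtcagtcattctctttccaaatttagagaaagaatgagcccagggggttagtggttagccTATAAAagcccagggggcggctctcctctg
The run of 20 bases began 170 bases before the start of *Myh2*, 166 before that of *Myh1* and 177 before that of *Myh4*. It was in none of the windows of *Myh3*, *Myh8*, *Myh7*, *Myh7b* and *Myh6*. Of 33469 windows of the same length searched on both strands, 5 held it (0.0149%): those of the 3 fast genes and 2 listed for LOC102555216, which is also on chromosome 10.

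TATAAA (both strands) was in the windows of *Myh3*, *Myh2*, *Myh1* and *Myh4*, 4 of the 8 genes, against 12.9% of all windows. On the written strand it began 30 bases before the start of *Myh2* and of *Myh3*, 33 before that of *Myh1*, and 45 and 227 before that of *Myh4*. The MEF2 consensus was in the windows of *Myh1* and *Myh4* (2.96% of all windows). In each, 1 match overlapped a TATAAA match on the other strand, which the capitals do not mark. The MCAT box CATTCC was in those of *Myh6*, *Myh1* and *Myh4* (12.1% of all), the CArG box in that of *Myh4* (1.5% of all), and the E-box CANNTG in those of *Myh3*, *Myh7*, *Myh7b*, *Myh6* and *Myh4* (65.5% of all). These are matches of letters and say nothing of binding.

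The muscle arrays were alike in level, with medians between 7.98 and 8.07 over all probe sets. The summed signal of 7 skeletal muscle genes (*Acta1*, *Des*, *Ttn*, *Ryr1*, *Ckm*, *Chrna1* and *Myot*) was between 15.59 and 15.74 on the log2 scale at P4 and between 13.38 and 14.01 at F16, and its medians in the 6 liver groups were between 9.95 and 10.79. Other tissues of the limb were present as well: the summed signal of 5 keratinocyte genes was between 14.17 and 14.57 at F18 and between 11.37 and 12.33 at F16, and all 5 rose between those days. The F16 arrays also stood apart in a gene of limb identity that was looked at after the values were seen. *Tbx5*, which marks the forelimb field in mouse and chick, was between 7.40 and 9.47 in the arrays of all later time points and at least 11.58 in the 5 F16 arrays. *Tbx4*, a hind limb gene in those species, was between 10.92 and 11.28 at F18 and between 10.58 and 11.36 at F16. The study's methods name the hind limb as the source. The part of these differences in any change from F16 was not tested. The changes from F16 of the isoforms, of their pairs and of the muscle, myosin and heart genes described below are therefore given from F18 as well. The study itself left the F18 muscle and adult liver arrays out of its bioinformatic analyses and conclusions. The F18 arrays were uneven in some genes, with an SD of 1.45 in *Myh11* and 1.47 in *Cnn1*, both smooth muscle genes.

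All 7 genes measured differed over the 6 muscle time points (F-test in limma, Benjamini-Hochberg adjusted p between 3.36e-18 for *Myh2* and 2.43e-07 for *Myh6*), as did 75% of all probe sets tested. Between F16 and P4 the embryonic, slow, cardiac and fast chains were all higher at P4 and *Myh7b* was lower. Of the 7 genes, 6 rose on the deposited scale, against 26.7% of all probe sets, and 1 fell, against 35%. Relative to the 7 skeletal muscle genes, 4 of those 6 were lower at P4 (2 of the 4 also from F18). On that scale the median of all probe sets was itself -2.07 from F16 and -1.27 from F18. The share of all probe sets that passed on it is not given. The median change of the 7 was 1.13 on the log2 scale, and that of all probe sets tested was -0.04. Of the 6 genes that rose, all had P4 arrays wholly above the F16 arrays, as in 21.4% of all probe sets. From F18 to P4, 5 genes rose (26.6% of all probe sets) and 1 fell (29.3%), with *Myh3* the gene that did not pass. In this bulk tissue, more fibres of a type and more RNA per fibre cannot be told apart.

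**Figure D1:**
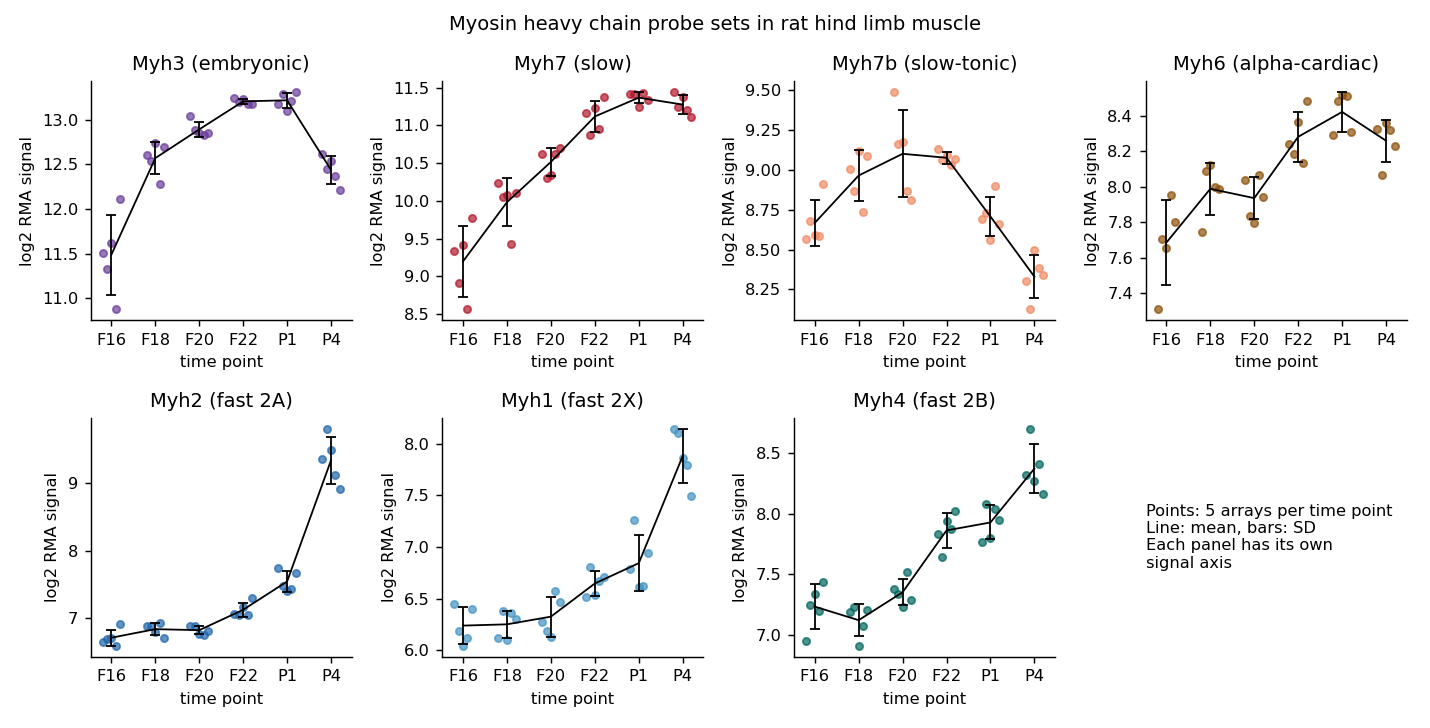
Log2 RMA signal (vertical axis, a separate scale in each panel) of the 7 probe sets at the 6 muscle time points (horizontal axis). Points are the 5 arrays of a time point, the line joins the means and bars are SD. *Myh3* was highest at F22 and P1, *Myh7* had its 3 highest means from F22 on, *Myh7b* was lowest at P4, and *Myh2*, *Myh1* and *Myh4* were highest at P4, where their P4 arrays lay above every earlier array.

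The genes did not move in the same intervals. From F16 to F18 the embryonic chain and the slow and cardiac chains *Myh7*, *Myh7b* and *Myh6* rose, 4 of the 7 genes against 14.1% of all probe sets, and none fell (19.3% of all fell). From F18 to F20 only *Myh7* rose (14.6% of all rose, and 15.9% fell). From F20 to F22 the 4 genes that rose were *Myh7*, *Myh6*, *Myh2* and *Myh4*, against 6.02% of all probe sets, and none fell (13.8% of all fell). From F22 to P1 *Myh2* rose (9.5% of all rose) and *Myh7b* fell (8.82% of all fell). From P1 to P4 the 3 fast chains rose (19.2% of all rose), and *Myh3* and *Myh7b* fell (14.7% of all fell). Relative to other muscle genes several of these directions turned, as given by interval in the closing section. On that scale the *Myh7* rise did not pass from F16 to F18 (adjusted p = 0.794) or from F20 to F22 (adjusted p = 0.0892). From F18 to F20 all 7 genes were lower on it, *Myh7* by -0.29 (adjusted p = 0.00669). The *Myh2* rise from F22 to P1 did not pass on that scale either (adjusted p = 0.204). The median of all probe sets on it was -0.79 from F16 to F18 and -0.84 from F18 to F20. It was -0.43 from F20 to F22 and -0.15 from F22 to P1.

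*Myh3*, the embryonic chain, had its highest signal around birth. It measured 11.51, 11.32, 11.61, 10.88 and 12.11 at F16, then 12.60, 12.53, 12.74, 12.27 and 12.70 at F18. At F20 the arrays gave 13.04, 12.88, 12.85, 12.83 and 12.86. At F22 they gave 13.24, 13.20, 13.24, 13.17 and 13.17, and at P1 they gave 13.17, 13.29, 13.10, 13.21 and 13.31. The F22 and P1 arrays overlapped and were the highest of the series. At P4 the signal fell to 12.62, 12.44, 12.54, 12.37 and 12.22, below every P1 array, with no share of all probe sets given for such a separation. The fall from P1 to P4 was -0.78 ± 0.128 (SE, adjusted p = 2.55e-05, n = 5 each), a P4 signal of 0.583 times that at P1. Against F16 the P4 arrays were higher by 0.95 ± 0.128 (adjusted p = 1.79e-07). Against F18 the difference was -0.13 (95% interval -0.39 to 0.13, adjusted p = 0.406) and the arrays overlapped.

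In order of its means *Myh3* ran F16, P4, F18, F20, F22 and P1, and only F16 and P4 differed among neighbours in that order (adjusted p of the others between 0.0563 and 0.969). The rise to F18 was the largest step before birth, 1.08 ± 0.128 (adjusted p = 1.91e-07). The *Myh3* arrays spread most at F16 (SD 0.449) and least at F22 (SD 0.0319). The list of developmental forms of other muscle proteins held 5 measured genes: *Tnnt2* (troponin T of heart and embryonic muscle), *Actc1* (cardiac actin, also of embryonic muscle), *Chrng* (the foetal subunit of the acetylcholine receptor), *Ncam1* (a surface protein of uninnervated fibres) and *Mybph* (a myosin-binding protein). From P1 to P4 all 5 fell, with a median of -0.53 against 0.02 for all probe sets tested. *Ncam1* changed by -0.96 (adjusted p = 7.32e-11) and *Tnnt2* by -0.83 (adjusted p = 4.63e-06). From F16 to P4 only 3 of them rose and 2 fell, with *Tnnt2* at 0.56, *Mybph* at -0.48, *Chrng* at 0.29 and *Actc1* at 0.28. From F18 to P4 1 rose and 2 fell. There *Tnnt2* gave -0.09 (adjusted p = 0.547), *Mybph* -0.38, *Chrng* -0.01 (adjusted p = 0.933) and *Actc1* 0.15.

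*Myh7*, the slow chain, climbed before birth, and no change after it passed the test. Its arrays gave 9.33, 8.92, 9.41, 8.56 and 9.77 at F16 and 10.24, 10.05, 10.08, 9.43 and 10.11 at F18, with some overlap between the groups. At F20 they gave 10.62, 10.30, 10.34, 10.63 and 10.70, and at F22 they gave 11.17, 10.87, 11.23, 10.95 and 11.38. The last groups were 11.42, 11.41, 11.25, 11.42 and 11.34 at P1 and 11.44, 11.25, 11.37, 11.21 and 11.11 at P4, and they overlapped each other. From F16 to P4 the change was 2.08 ± 0.157 (adjusted p = 2.05e-12), or 4.22-fold, and from F18 it was 1.29 ± 0.157 (adjusted p = 4.29e-08). On the deposited scale *Myh7* was the only one of the 7 genes to rise in each of the 3 intervals before birth, by 0.78, 0.53 and 0.60 (adjusted p = 0.000272, 0.0101 and 0.00704). The step from F18 to F20 did not pass with 4 arrays left out that stood off from the rest of their time points, F16 replicate 5, F20 replicates 4 and 5 and F22 replicate 5 (0.44, adjusted p = 0.0548). From P1 to P4 the difference was -0.09 (95% interval -0.41 to 0.23, adjusted p = 0.711). In order of its means *Myh7* ran F16, F18, F20, F22, P4 and P1, where the last 3 did not differ between neighbours (adjusted p = 0.476 and 0.711).

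Of 11 other slow-fibre genes measured, 10 rose from F16 to P4 with a median of 2.01, and 26.7% of all probe sets rose in that comparison. The 4 largest changes were *Myl3* (ventricular and slow essential light chain) at 3.41 ± 0.212, *Myl2* (its regulatory partner) at 2.84 ± 0.192, *Csrp3* (a Z-disc protein) at 2.46 ± 0.157 and *Myoz2* (a Z-disc protein of slow fibres) at 2.38 ± 0.135, with adjusted p of at most 1.85e-13. From F18 to P4 10 of the 11 also rose (median 1.09), with these 4 between 1.80 and 2.49. From P1 to P4 only 1 of the 11 rose and 1 fell. Over the 30 muscle arrays the genes most like *Myh7* were *Myom1* (a protein of the M-line, Pearson r = 0.986), *Casq2* (a calcium-binding protein of the sarcoplasmic reticulum, 0.983), *Des* (desmin, 0.981), *Atp1b4* (0.981) and *Mypn* (a Z-disc protein, 0.98). These correlations are descriptions over arrays that share their time points. With the time-point means taken out, r was still between 0.845 and 0.91 for the 5 genes.

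*Myh7* and *Myh3* deviated together within time points (r = 0.832 over the 30 arrays after the means were taken out, 0.81 before). The array lowest in *Myh3* at F16, replicate 4, was also lowest in *Myh7*, and replicate 5 was highest in both. The mean of the 7 skeletal muscle genes was likewise lowest in F16 replicate 4 (10.03) and highest in replicate 5 (10.74). The part of the muscle content of an array in the shared deviation was not tested. Within an array, *Myh7* minus *Myh3* averaged -1.16 ± 0.0349 at P4 and -2.29 ± 0.0975 at F16 (SD, n = 5 each). Their relative change of 1.13 had an exact two-sided permutation p of 0.00794, the smallest that 5 against 5 allows. Over the 4 pairs compared its adjusted p was 0.0106. At F18 the pair averaged -2.59 ± 0.184, so the relative change from F18 was 1.43 (exact p = 0.00794).

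*Myh7b* was the only one of the 7 genes that was lower at P4 than at F16. It measured 8.57, 8.68, 8.59, 8.58 and 8.91 at F16, 9.01, 8.87, 9.12, 8.74 and 9.09 at F18, and 9.49, 9.16, 9.17, 8.87 and 8.81 at F20. At F22 the arrays lay close together at 9.13, 9.06, 9.09, 9.03 and 9.07. After birth they gave 8.69, 8.73, 8.56, 8.90 and 8.66 at P1 and 8.30, 8.13, 8.50, 8.38 and 8.34 at P4. No P1 array reached the lowest F22 array, and no P4 array reached the lowest P1 array. The share of all probe sets whose later arrays all lay below the earlier ones is not given. The gene fell by 0.37 from F22 to P1 (SE 0.0978, adjusted p = 0.00786) and by 0.38 from P1 to P4 (SE 0.0978, adjusted p = 0.0034). P4 minus F16 was -0.34 (adjusted p = 0.00371) and P4 minus F18 was -0.63 (adjusted p = 2.44e-06). The rise from F16 to F18, 0.30 (adjusted p = 0.0193), did not pass when any of 3 arrays was left out (F16 replicate 1, F18 replicate 3 or F18 replicate 5, adjusted p up to 0.0581). In order of its means *Myh7b* ran P4, F16, P1, F18, F22 and F20, where P4 and F16, and P1 and F18, differed. The genes most like it over the 30 arrays were *Impg1* (r = 0.889), *Dkk4* (an inhibitor of Wnt signalling, 0.884), *Recql4* (a DNA helicase, 0.849), *Plce1* (a phospholipase C, 0.846) and *Aknad1* (0.844).

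*Myh6*, the alpha chain of the heart, changed least among the genes that rose. Its means were 7.69, 7.99, 7.94, 8.28, 8.42 and 8.26 from F16 to P4, with SD between 0.113 and 0.239. It was higher at P4 by 0.57 ± 0.0929 than at F16 (adjusted p = 3.54e-06) and by 0.27 than at F18 (adjusted p = 0.0139). The step from F16 to F18 (0.30, adjusted p = 0.0119) did not pass without F16 replicate 1, the lowest array at 7.31 (0.21, adjusted p = 0.0624). The step from F20 to F22 was 0.35 (adjusted p = 0.00876), and P1 and P4 did not pass the test of a difference (-0.16, 95% interval -0.35 to 0.03). In order of its means *Myh6* ran F16, F20, F18, P4, F22 and P1, with differences between F16 and F20 (adjusted p = 0.0261) and between F18 and P4, and none passing between the other neighbours. Of 11 other genes of the heart, 2 rose and 4 fell from F16 to P4 with a median of -0.20, and 2 rose and 5 fell from F18 with a median of -0.26. The 4 largest changes from F16 were *Tbx5* at -4.00, *Hcn4* (a pacemaker channel) at -0.59, *Ryr2* (the heart's calcium release channel) at -0.27 and *Nppb* (a natriuretic peptide) at 0.21. From F18 these 4 gave -0.89, -0.30, -0.28 and 0.19. The summed signal of the list was between 10.64 and 10.87 at P4 and between 12.21 and 12.47 at F16 (it includes *Tbx5*). Within an array, *Myh6* minus *Myh7* averaged -3.02 ± 0.132 at P4 and -1.51 ± 0.597 at F16 (SD, n = 5 each), a relative change of -1.50 (exact two-sided permutation p = 0.00794, adjusted over 4 pairs 0.0106). From F18 it was -1.02 (exact p = 0.00794). With the time-point means taken out, *Myh6* and *Myh7* had r = -0.01.

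*Myh2*, the fast 2A chain, had the largest change of the 7 genes. It measured 6.65, 6.70, 6.70, 6.59 and 6.91 at F16, 6.88, 6.88, 6.79, 6.92 and 6.71 at F18, and 6.89, 6.88, 6.77, 6.76 and 6.82 at F20. These groups overlapped each other. At F22 it gave 7.06, 7.05, 7.16, 7.05 and 7.30 and at P1 it gave 7.74, 7.48, 7.40, 7.43 and 7.67. At P4 the arrays gave 9.35, 9.80, 9.49, 9.12 and 8.90, and the lowest of them was above the highest P1 array. The rise from P1 to P4 was 1.79 ± 0.104 (adjusted p = 1.3e-13), or 3.46-fold. Of all probe sets tested, 0.261% rose at least as much in that interval. From F22 to P1 the rise was 0.42 ± 0.104 (adjusted p = 0.00475), with no overlap, against 7.69% of all probe sets whose P1 arrays all lay above the F22 arrays. The earlier step, 0.30 from F20 to F22 (adjusted p = 0.0405), did not pass when any of 6 single arrays was left out (F20 replicates 2, 3, 4 and 5, F22 replicates 3 and 5, adjusted p up to 0.112), nor without the F18 arrays (0.0616), with the replicate number as a block (0.0503) or after quantile normalisation again (0.1). At P4 *Myh2* was higher by 2.62 ± 0.104 than at F16 (adjusted p = 2.91e-18) and by 2.50 than at F18 (adjusted p = 3.34e-17). Its means ran F16, F20, F18, F22, P1 and P4, where the first 3 did not differ between neighbours (adjusted p = 0.405 and 0.937) and each later step did.

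*Myh1*, the fast 2X chain, followed with a smaller step. Its arrays gave 6.44, 6.19, 6.04, 6.12 and 6.40 at F16, 6.12, 6.38, 6.10, 6.36 and 6.30 at F18, 6.27, 6.18, 6.13, 6.58 and 6.47 at F20 and 6.52, 6.80, 6.54, 6.67 and 6.71 at F22. At P1 they gave 6.78, 7.26, 6.62, 6.62 and 6.94, overlapping F22, and at P4 they gave 8.15, 8.10, 7.86, 7.79 and 7.50, all above P1. The rise from P1 to P4 was 1.04 ± 0.12 (adjusted p = 1.32e-07), or 2.05-fold. None of the 4 earlier intervals passed, with differences between 0.01 and 0.32 and adjusted p between 0.0595 and 0.956. The step from F20 to F22 did pass with array weights (0.39, adjusted p = 0.00441), with each array centred on its median (0.35, adjusted p = 0.0375) and without the 4 arrays named above (0.44, adjusted p = 0.0315). At P4 *Myh1* was higher by 1.64 than at F16 (adjusted p = 1.07e-12) and by 1.63 than at F18 (adjusted p = 3.27e-12). The means of *Myh1* ran in the order of age, and P1 and P4 were the only neighbours that differed.

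*Myh4*, the fast 2B chain, rose in 2 separate intervals. It measured 6.95, 7.25, 7.34, 7.20 and 7.44 at F16, 7.19, 7.23, 6.91, 7.08 and 7.21 at F18 and 7.38, 7.34, 7.24, 7.52 and 7.29 at F20. At F22 the arrays gave 7.83, 7.64, 7.94, 7.87 and 8.02, above all earlier ones. At P1 they gave 7.77, 8.08, 7.80, 8.04 and 7.95, overlapping F22, and at P4 they gave 8.32, 8.70, 8.27, 8.40 and 8.16. The rise from F20 to F22 was 0.51 ± 0.0943 (adjusted p = 0.000362) and that from P1 to P4 was 0.44 ± 0.0943 (adjusted p = 0.000535). Between F22 and P1 the difference was 0.07 (95% interval -0.13 to 0.26, adjusted p = 0.725). At P4 it was higher by 1.13 ± 0.0943 than at F16 (adjusted p = 1.59e-11) and by 1.24 than at F18 (adjusted p = 5.66e-12). The means of *Myh4* ran F18, F16, F20, F22, P1 and P4, and only F20 and F22, and P1 and P4, differed among neighbours.

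**Figure D2:**
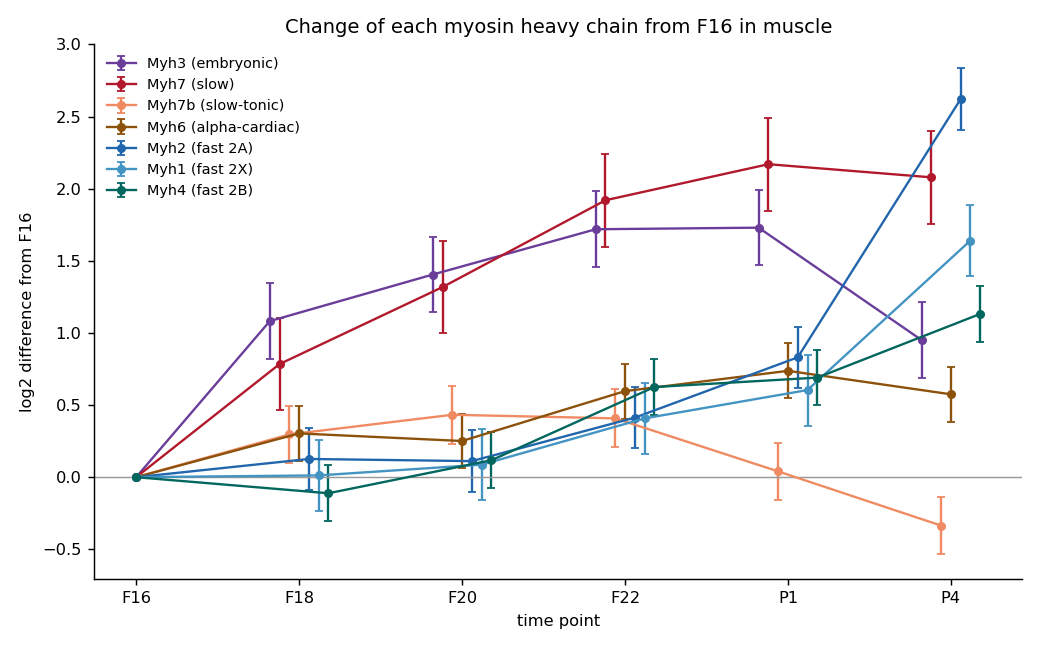
Difference of each probe set from its F16 mean (log2 scale, vertical axis) at the later muscle time points (horizontal axis), with 95% intervals from limma, 5 arrays at each time point. At F18 *Myh3* (1.08) and *Myh7* (0.78) lay highest, and between P1 and P4 *Myh2*, *Myh1* and *Myh4* rose while *Myh3* and *Myh7b* fell.

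The 3 adult fast chains were thus the 3 of the 7 genes that rose after P1. In all 3 the P4 arrays lay wholly above the P1 arrays, as in 13.8% of all probe sets. Over the 30 arrays *Myh2* and *Myh1* had r = 0.955, *Myh1* and *Myh4* 0.876, and *Myh2* and *Myh4* 0.851. With the time-point means taken out the 3 values were 0.423, 0.323 and 0.458. *Myh13*, the extraocular chain whose gene lies after *Myh8* in the same cluster, had means between 6.30 and 6.46 at the 6 time points. Its P4 minus F16 difference was 0.11 (adjusted p = 0.237), and from F18 it was 0.14 (adjusted p = 0.14).

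The signals of the fast chains did not move by the same amount. At F16 they were low: minus the array's median over the probe sets tested they averaged -1.973 (*Myh2*), -2.445 (*Myh1*) and -1.447 (*Myh4*). The part of low signal or of paralogue transcript in the unequal changes was not tested. Within an array, *Myh2* minus *Myh1* averaged 1.45 ± 0.204 at P4 and 0.47 ± 0.164 at F16 (SD, n = 5 each), a relative change of 0.98 (exact two-sided permutation p = 0.00794, adjusted over 4 pairs 0.0106). *Myh4* minus *Myh1* averaged 0.49 ± 0.204 at P4 and 1.00 ± 0.292 at F16, a relative change of -0.51 (exact two-sided permutation p = 0.0317, also 0.0317 adjusted over 4 pairs). That second difference did not pass without F16 replicate 3 (exact p = 0.0556). From F18 the relative changes were 0.87 for *Myh2* minus *Myh1* and -0.38 for *Myh4* minus *Myh1* (exact p = 0.00794 for both, the same adjusted over 4 pairs). The changes within a probe set are compared here, since the signals of different probe sets are not on a common scale.

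**Figure D3:**
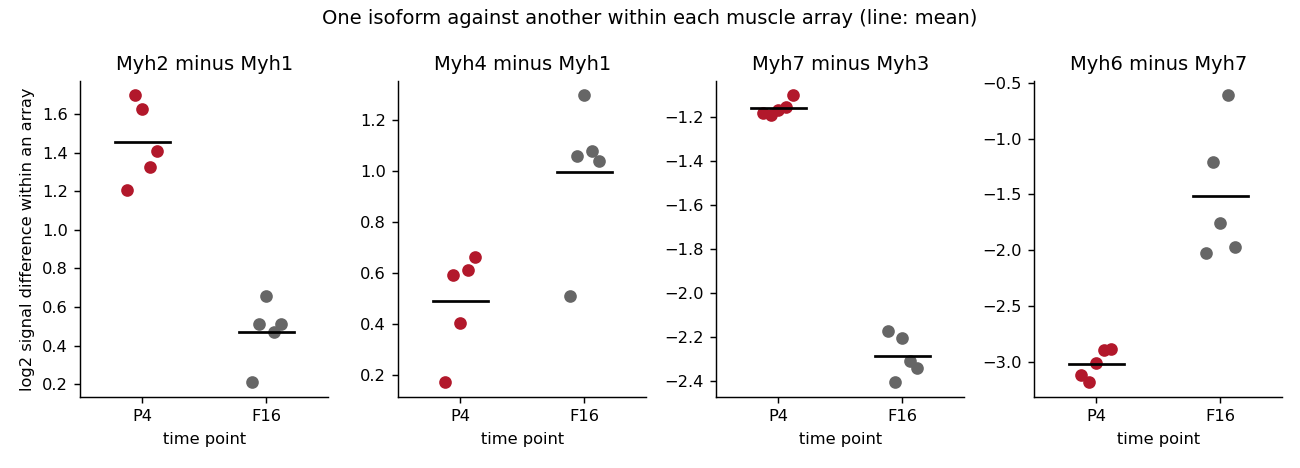
Log2 signal of one isoform minus that of another within the same array (vertical axis) at P4 (left) and F16 (right), 5 arrays each, with a line at the mean. The P4 and F16 arrays separate in *Myh2* minus *Myh1*, *Myh7* minus *Myh3* and *Myh6* minus *Myh7*, and overlap in *Myh4* minus *Myh1*.

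Of 10 other fast-fibre genes measured, 6 rose from F16 to F18, 8 from F18 to F20, 9 from F20 to F22, 3 from F22 to P1 and 3 from P1 to P4, against 14.1%, 14.6%, 6.02%, 9.5% and 19.2% of all probe sets. The differences between these counts were not tested. All 10 rose from F16 to P4, with a median of 2.82, and 26.7% of all probe sets rose in that comparison. *Tnni2*, *Tnnt3* and *Tnnc2*, the fast troponins, changed by 4.37 ± 0.177, 3.40 ± 0.143 and 3.01 ± 0.165 (adjusted p of at most 2.16e-15). *Actn3*, the alpha-actinin of fast fibres, changed by 3.91 ± 0.167 (adjusted p = 1.04e-17). From F18 to P4 all 10 rose as well (median 2.48), with these 4 between 2.12 and 3.21. The 3 that rose from P1 to P4, where the list median was 0.15, were *Pvalb* (parvalbumin, a calcium buffer of 2B fibres) at 1.67, *Mybpc2* (the fast myosin-binding protein C) at 1.05 and *Actn3* at 0.60, while *Tnni2* gave 0.07 (adjusted p = 0.82) and *Tnnt3* gave -0.04 (adjusted p = 0.863).

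Of 12 partners and chaperones of myosin in the thick filament, 9 rose and 2 fell from F16 to P4 (median 1.21), and 1 rose and 7 fell from P1 to P4 (median -0.32). From F18 to P4 8 rose and 2 fell (median 0.70). *Mybpc1*, the slow myosin-binding protein C, changed by 2.53 ± 0.13 from F16 to P4 and by -0.36 from P1 to P4 (adjusted p = 5.17e-16 and 0.0309). *Mybpc2* changed by 2.38 from F16 to P4 and was the one that rose in the last interval (1.05, adjusted p = 4.69e-07). *Myom1* and *Ttn*, the giant filament protein, changed by 2.38 and 2.11 from F16 to P4, and by -0.26 (adjusted p = 0.168) and -0.57 (adjusted p = 0.0108) from P1 to P4. From F18 to P4 *Mybpc1*, *Mybpc2*, *Myom1* and *Ttn* changed by 1.37, 2.36, 1.495 and 0.75. The myosin heavy chains outside the sarcomere showed no common direction: *Myh10* fell by 1.07 from F16 to P4, *Myh11*, the smooth muscle chain, gave 1.03 with a wide SE of 0.356 (adjusted p = 0.0134) and -0.34 from F18 (adjusted p = 0.44), and *Myh14* gave 0.36 (adjusted p = 3.43e-06). From F18 *Myh10* gave -1.28 and *Myh14* gave 0.29.

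Among 17 regulators of muscle fate and fibre type, 11 rose and 4 fell from F16 to P4 (median 0.35), and 10 rose and none fell from F18 (median 0.26). *Myf6*, a myogenic factor of differentiated fibres, changed by 4.33 ± 0.204 (adjusted p = 8.74e-17). *Ppargc1a*, a coactivator of oxidative metabolism and slow fibres, changed by 1.00, *Mef2d* by 0.78 and *Nfix*, which represses embryonic and promotes foetal muscle genes in mouse, by 0.75. From F18 to P4 *Myf6*, *Ppargc1a*, *Mef2d* and *Nfix* changed by 3.71, 0.89, 0.64 and 0.41. In the last interval 4 of the 17 rose and 2 fell, with *Nfix* at 0.47 (adjusted p = 1.12e-05) and *Ppargc1a* at -0.76 (adjusted p = 3.74e-07).

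Other muscle genes also rose before birth (6 of the 7 of the skeletal muscle list from F16 to P4, and 6 from F18 to P4). The members were therefore also read relative to the mean of the 7 skeletal muscle genes. That mean was 10.46, 11.22, 12.04, 12.46, 12.60 and 12.48 at F16, F18, F20, F22, P1 and P4. That scaling moved the median of all probe sets by -2.03 for P4 minus F16 and by 0.12 for P4 minus P1, so the signs below are relative to muscle genes and not to all genes. On it *Myh2* was the only one of the 7 genes that was still higher at P4 than at F16 (0.60 ± 0.13, adjusted p = 5.12e-05). *Myh7* did not pass (0.05, adjusted p = 0.613), and *Myh3*, *Myh6*, *Myh1* and *Myh4*, which rose on the deposited scale, were lower at P4, by -1.08, -1.45, -0.39 and -0.89 (adjusted p between 7.13e-13 and 0.00697 for the 4). From F18, where the scaling moved the median of all probe sets by -1.27, 2 of the 7 genes were higher at P4 on this scale, *Myh2* by 1.23 (adjusted p = 3.79e-11) and *Myh1* by 0.36 (adjusted p = 0.0118), so the sign of *Myh1* turns with the starting day. *Myh3*, *Myh7b* and *Myh6* gave -1.40, -1.90 and -0.998 (adjusted p of at most 1.56e-08), and *Myh7* (0.02, adjusted p = 0.81) and *Myh4* (-0.03, adjusted p = 0.832) did not pass. The last interval kept its picture: from P1 to P4 *Myh2* rose by 1.91, *Myh1* by 1.15 and *Myh4* by 0.56 and *Myh3* changed by -0.66, all past the threshold, and *Myh7b* gave -0.26 (adjusted p = 0.173).

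**Figure D4:**
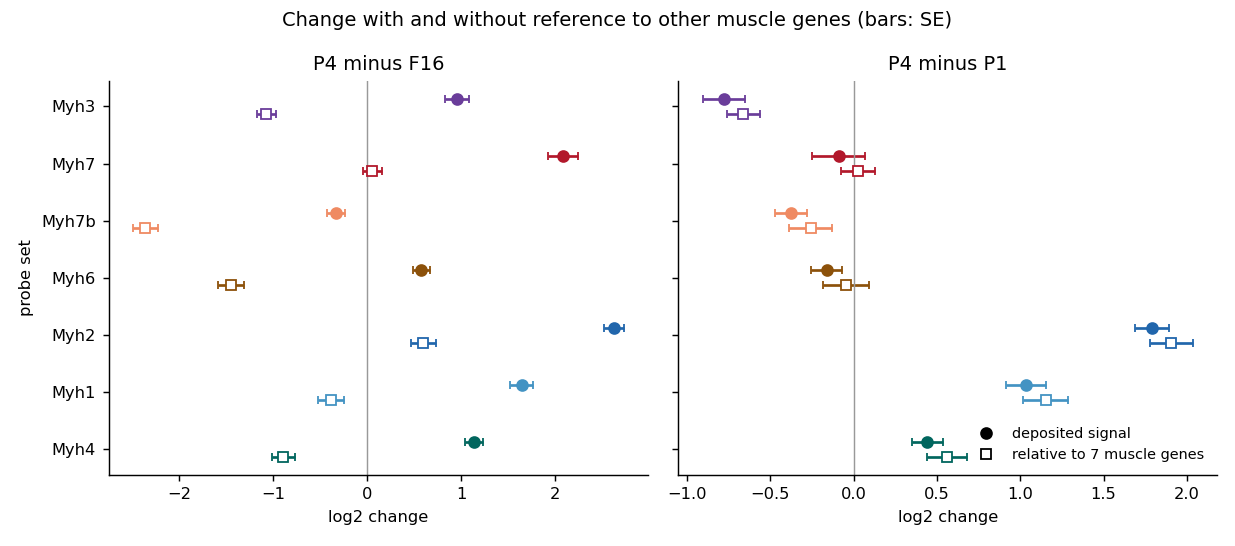
Change of each probe set for P4 minus F16 (left) and P4 minus P1 (right), on the log2 scale (horizontal axis), as deposited (filled circles) and relative to the mean of 7 skeletal muscle genes (open squares); bars are SE. Between F16 and P4 *Myh3*, *Myh6*, *Myh1* and *Myh4* change sign between the scales (from F18 *Myh3* and *Myh1* do not), and between P1 and P4 the signs of *Myh3*, *Myh2*, *Myh1* and *Myh4* are the same on both.

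The genes most like the remaining members were found in the same way over the 30 muscle arrays. For *Myh2* they were *Krt28* (r = 0.97), *Bglap* (osteocalcin of bone, 0.969), *Alox15* (a lipoxygenase, 0.969), *Krt73* (0.969) and *Krt25* (0.968), of which the 3 keratins belong to the hair root sheath. Their correlation with *Myh2* after the time-point means were taken out was between -0.43 and 0.34. For *Myh1* they were *Ucp3* (the uncoupling protein of muscle, 0.963), *Cyp4b1* (0.958), *Mbp* (myelin basic protein, 0.958), *Myh2* (0.955) and *Atp1b2* (0.949), and *Ucp3* kept r = 0.71 within time points. For *Myh4* they were *Igsf1* (0.946), *Lrg1* (0.942), *Cyp4f18* (0.942), *Zbtb20* (0.941) and *C1r* (0.94). For *Myh3* they were *Raph1* (0.962), *Anxa6* (0.961), *Akap6* (0.957), *Vcl* (vinculin, 0.956) and *Morc4* (0.955), with *Akap6* at 0.827 within time points. For *Myh6* they were *Lnpep* (0.878), *Ttyh1* (0.874), *Cd40* (0.871), *Lifr* (0.868) and *Lrch1* (0.868).

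Other cells changed in the same interval in which the fast chains rose. From P1 to P4 4 of 6 erythroid genes rose (median 1.57) and none fell, and their summed signal was between 14.69 and 14.86 at P4 and between 14.31 and 14.70 at P1. Of 4 Schwann cell genes, 3 rose (median 0.26), with a summed signal between 13.17 and 13.31 at P4 and between 12.92 and 13.07 at P1. In the same interval 5 of 6 endothelial genes fell (median -0.28), and of 7 macrophage genes 1 rose and 4 fell (median -0.50). From P1 to P4 none of 6 adipocyte genes passed in either direction, but all 6 rose from F22 to P1 (median 1.41). The summed signal of the skeletal muscle list was between 15.59 and 15.74 at P4 and between 15.64 and 15.82 at P1. The part of the other cells in the changes of the members was not tested.

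In liver, which has no sarcomeres of its own, 4 of the 7 genes differed over the 6 time points (*Myh7b*, *Myh2*, *Myh1* and *Myh4*, adjusted p between 5.87e-05 and 0.0454), against 84.3% of all probe sets. Without P90 2 of the 7 passed, and the share of all probe sets that passed in that fit is not given. The liver means of *Myh2* lay between 5.81 and 6.14, those of *Myh1* between 4.59 and 5.09, those of *Myh4* between 6.14 and 6.60 and those of *Myh7b* between 6.79 and 7.26. With its sign kept, P4 minus F16 was higher in muscle than in liver for 6 of the 7 genes and lower for *Myh7b*. All 7 passed a test of the difference between tissues (adjusted p at most 0.00882, 57.8% of all probe sets passed). The sign is not the size: *Myh3* changed by 0.95 in muscle and -1.58 in liver, and *Myh7b* by -0.34 in muscle and 0.05 in liver. For *Myh2* the change was 2.62 in muscle and 0.30 in liver, and for *Myh7* it was 2.08 in muscle and -0.27 in liver. In liver P4 replicate 1 *Myh2* was at 6.63, with the other P4 arrays between 5.95 and 5.998. The 7 skeletal muscle genes averaged 7.47 in that array, and its part in the *Myh2* liver results was not tested.

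*Myh3* was uneven between livers of the same age. At F16 it measured 8.07, 6.28, 8.30 and 8.93, at F20 8.78, 6.40, 6.10 and 6.30, and at F22 9.55, 6.16, 6.25 and 8.14. After birth all 12 arrays lay between 6.001 and 6.56. The foetal arrays thus fell into some near the postnatal level and some far above it. The mean of the 7 skeletal muscle genes was highest in the same foetal livers: 7.52, 6.94, 7.68 and 8.15 at F16, 8.03, 6.82, 6.86 and 6.87 at F20, and 8.82, 6.90, 6.88 and 7.74 at F22. In P4 replicate 1, the highest P4 array of *Myh3* at 6.56, it was 7.47, against 6.79 to 6.87 in the other 3. The liver change of *Myh3* from F16 to P4, -1.58 ± 0.617 (adjusted p = 0.0317), and its difference from muscle, 2.53 ± 0.59 (adjusted p = 0.000244), rest on F16 arrays that carry these genes, and their part in it was not tested.

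**Figure D5:**
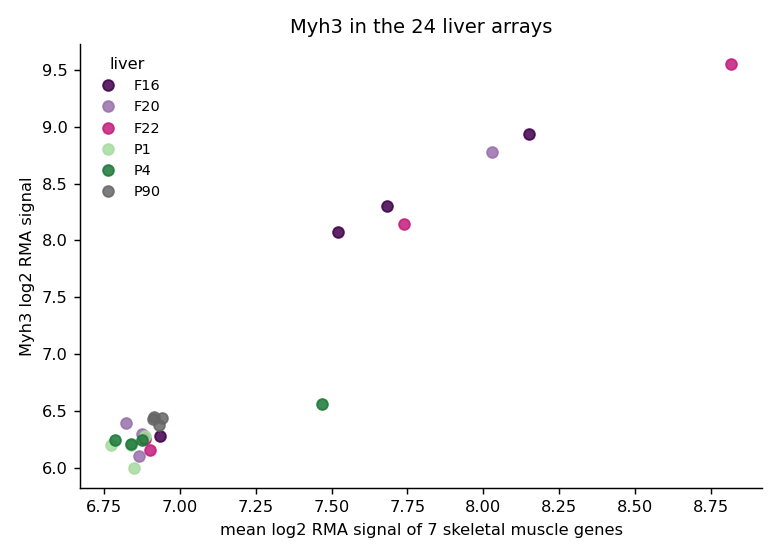
*Myh3* log2 RMA signal (vertical axis) against the mean log2 RMA signal of 7 skeletal muscle genes (horizontal axis) in the 24 liver arrays, coloured by time point. The 6 foetal arrays with *Myh3* above 8 are the 6 foetal arrays in which the muscle genes are above 7.5, and the other arrays lie below 7 on both axes except P4 replicate 1.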

How the data were processed

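RNA of rat liver (24 arrays) and hind limb muscle (30 arrays) had been hybridised to GeneChip Rat Gene 1.0 ST arrays. The authors deposited log2 RMA values made with Affymetrix Expression Console, of which no source used here gives the version, with each tissue normalised on its own. RMA compresses low signals, so changes of dim probe sets can be understated. Of 29214 probe sets, 15310 carried 1 gene symbol, 323 several and 13581 none, and 15279 of the 15310 matched a RefSeq gene ID with no change of symbol. Each tissue was fitted with limma 3.58.1 (R 4.3.3), its 6 time points as groups, and p-values were adjusted by Benjamini-Hochberg over all 15310 with a threshold of 0.05. The fit was first tested on simulated data. Isoform pairs were compared by exact permutation. The number of arrays limits the precision. All probe sets of the 8 genes were reported, with the 5 genes most like each and, of each list of muscle genes, myosins or heart genes, the 4 largest changes from F16 to P4. The keratinocyte, erythroid and Schwann cell lists are given by counts and summed signal, and the endothelial, macrophage and adipocyte lists by counts and medians. None is given with the named genes that the same rule would give. Lists measured but not described above changed from F16 to P4 by medians of 1.20 (fibroblast, 6 of 7 rose and 1 fell), 2.28 (tendon, 2 of 3 rose and 1 fell) and -0.47 (cartilage, 3 of 6 fell). Medians were 0.57 for smooth muscle (3 of 6 rose) and 0.18 for muscle precursors (3 of 6 rose and 2 fell). Genes of a list named beyond these (*Pvalb* among them) and *Tbx5* and *Tbx4* were singled out after their values were seen. The members and the gene lists were chosen with earlier results of these data known. *Myh8* was not analysed here.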

Additional observations from a re-analysis of the deposited data

Results flagged for a closer look

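Of 84 groups of 4 or 5 arrays (7 genes, 12 groups), 6 had 1 array far from the rest by Dixon's test, and chance gives about 1 in 20. *Myh3* was at 8.78 in liver F20 replicate 1, with the other 3 at most 6.40, and at 6.56 in liver P4 replicate 1, with the other 3 at most 6.24. In muscle F20 replicate 1 *Myh3* was at 13.04, with the next array at 12.88. *Myh7* was at 9.43 in muscle F18 replicate 4, with the next at 10.05. *Myh2* was at 5.65 in liver F16 replicate 2, with the next at 5.88, and at 6.63 in liver P4 replicate 1, with the next at 5.998. Liver P4 replicate 1 is therefore high in both *Myh3* and *Myh2*, and its 7 skeletal muscle genes averaged 7.47.

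The changes from F16 to P4 differed between muscle and liver in all 7 genes in a fit over both tissues that was added after the values were seen. Muscle minus liver was 2.53 for *Myh3*, 2.34 for *Myh7*, -0.39 for *Myh7b*, 0.99 for *Myh6*, 2.32 for *Myh2*, 1.52 for *Myh1* and 0.96 for *Myh4*.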

How the results depend on the processing

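The alternatives were another block, weights, normalisation, centring, prior, filter and set of arrays. Of 7 genes, all passed the F-test in every fit that held all 7. For P4 against F16 all 7 passed too, except that 6 passed relative to the skeletal muscle list and 6 with F18 in place of F16, chosen after seeing the data, where *Myh3* gave -0.13. With only probe sets above the median signal, 3 genes were left and 3 passed in both. Between F20 and F18, 1 gene passed, against 3 with unadjusted p, 2 with the replicate block, 4 with array weights, 7 relative to the skeletal muscle list, 2 above the median signal and 2 without 4 arrays. All 7 were lower at F20 relative to that list, a scaling that moved the median of all probe sets by -0.83 in this interval. It moved that median by -0.42 for F22 against F20 and by -0.14 for P1 against F22. The share of all probe sets that passed on this scale is not given, so these counts are not set against one. Relative to the muscle list and also above the median signal, 1 passed for F22 against F20 (4 on the deposited scale) and 1 for P1 against F22 (2 on the deposited scale). Above the median signal 2 passed for P4 against P1 (5 among all). In liver 2 passed without P90, against 4, with no share of all probe sets given for that fit. Leaving out each array gave 7 to 7 genes for the F-test and P4 against F16, 2 to 4 for F18 against F16 (2 without F16 replicate 1), 1 to 2 for F20 against F18 (2 without any of F16 replicates 1, 4 and 5, F18 replicate 3, F20 replicate 3 and P4 replicate 2), 3 to 5 for F22 against F20, 2 to 2 for P1 against F22, 5 to 5 for P4 against P1 and 3 to 5 in liver. The relative change of *Myh4* to *Myh1* lay between -0.63 and -0.43, of *Myh2* to *Myh1* between 0.92 and 1.04, of *Myh7* to *Myh3* between 1.10 and 1.16 and of *Myh6* to *Myh7* between -1.63 and -1.28.

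Replicate numbers did not pair the muscle arrays: same-numbered arrays had mean correlations of deviations between -0.05 and 0.04, against 0.00 for different numbers. With the number as a replicate block 7 genes passed for P4 against F16 and 2 for F20 against F18, and *Myh2* no longer passed for F22 against F20 (adjusted p = 0.0503, 0.0405 without the block). That call was also lost without F18, after quantile normalisation again and without 4 arrays (adjusted p between 0.0616 and 0.222), while *Myh1* passed for the same interval with array weights, centred on the array median and without 4 arrays (adjusted p between 0.00441 and 0.0375).

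Signs turned relative to the muscle list for P4 against F16 in *Myh3* (-1.08), *Myh6* (-1.45), *Myh1* (-0.39) and *Myh4* (-0.89). They also turned for F18 against F16 in *Myh7b* (-0.46), *Myh6* (-0.45), *Myh2* (-0.63) and *Myh1* (-0.74), and for F20 against F18 in *Myh3* (-0.50), *Myh7* (-0.29), *Myh7b* (-0.69), *Myh1* (-0.75) and *Myh4* (-0.60). For F22 against F20 they turned in *Myh3* (-0.11), *Myh6* (-0.074), *Myh2* (-0.12) and *Myh1* (-0.10), for P1 against F22 in *Myh3* (-0.13) and *Myh4* (-0.075), and for P4 against P1 in *Myh7* (0.025). None of the turned values passed in the intervals from F20 on (adjusted p between 0.31 and 0.891), and those named before them passed. Some had not passed as deposited: *Myh2* and *Myh1* for F18 against F16, and all but *Myh7* for F20 against F18. The same held for *Myh3* and *Myh1* for F22 against F20, and for those named for P1 against F22 and P4 against P1. Under other settings, differences that did not pass on the deposited scale turned: *Myh2* for F20 against F18 (0.024 with array weights, 0.011 after quantile normalisation again and 0.0089 without 4 arrays), *Myh1* for F20 against F18 (-0.020 with array weights, -0.058 without 4 arrays), *Myh7b* for F22 against F20 (0.015 after quantile normalisation again, 0.0078 centred on the array median) and *Myh1* for F18 against F16 (-0.0046 centred on the array median). Leaving out an array took *Myh1* F18 against F16 between -0.037 and 0.064, *Myh7b* F22 against F20 between -0.10 and 0.072, *Myh2* F20 against F18 between -0.046 and 0.0063 and *Myh3* P1 against F22 between -0.012 and 0.041. The causes were not tested.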
